A study of Mus musculus with 6 samples.

Results

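The cells described here were connective-tissue cells of the mouse colon, mostly fibroblasts with a few smooth-muscle-like cells. They came from 1 single-cell library made on day 2 of dextran sodium sulfate (DSS). They were selected on their own measured counts, among barcodes in which 200 or more genes were detected and mitochondrial genes gave no more than 10% of the unique molecular identifiers (UMIs, each standing for 1 captured RNA molecule). Each held at least 5 UMIs summed over the collagen genes Col1a1, Col1a2 and Col3a1, or at least 5 summed over the contractile genes Acta2, Myh11 and Tagln. Each also had 0 UMIs of Ptprc, which encodes the leukocyte surface protein CD45, and 0 of Epcam, an adhesion molecule of epithelial cells. The rule found 376 cells among 2997 barcodes that passed the gene and mitochondrial limits. In 365 cells the collagen sum was the larger (collagen-led), in 10 the muscle sum was (muscle-led), and in 1 the sums were equal, which left it in neither group.

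The study took colon from wild-type mice, either SPF (specific pathogen free) or pGF (pseudo germ-free), the latter given antibiotics for 4 weeks before DSS and along with it. DSS was given for 0, 2 or 7 days, which makes 6 groups with 1 library each. The library described here came from SPF mice treated with DSS for 2 days and had no antibiotics, and its untreated counterpart is SPF day 0. Tissue was stripped of epithelium with EDTA, digested with Liberase TL and DNase I, sorted for CD45-positive cells and made into libraries with the Chromium 5′ kit. The labels do not say how many mice went into a library. DSS itself is a polymer that damages the colon lining and is used to model colitis. With 1 library a group there was no test and no p-value. Intervals are exact, cover counting error only, and compare libraries or pools of cells rather than conditions.

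Fibroblasts build the fibrous matrix of the gut wall and, in the lamina propria and around crypts, release Wnt, R-spondin and BMP family signals and their antagonists, which set where epithelial stem cells divide and where their daughters mature. They also make chemokines and cytokines that guide leukocytes. Smooth muscle cells form the muscularis and thin strands in the mucosa, and contract by a shared set of actin, myosin and accessory proteins, many of whose genes are driven by serum response factor with its coactivator myocardin.

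Fibroblasts and muscle cells were far more frequent among the barcodes of this library than in the others. They made up 12.5% (376 of 2997, 95% interval 11.4 to 13.8%) of barcodes that passed, against 0.848% at SPF day 0 (20 of 2359, 0.519 to 1.31%) and 0.0094% at SPF day 7 (1 of 10633). In pGF mice the shares were 1.80% (23 of 1280), 0.200% (15 of 7488) and 0.397% (26 of 6547) on days 0, 2 and 7. SPF day 2 held 81.6% of the 461 such barcodes in the series. Muscle-led cells numbered 3, 10 and 0 in SPF and 3, 0 and 0 in pGF over the same days. No other library reached 50 of these cells, so other genes were not compared between libraries. The mitochondrial limit removed 61.1% of the 7753 deposited barcodes of SPF day 2, against 6.41 to 28.1% elsewhere. As a share of all deposited barcodes, members were 4.85% at SPF day 2 and between 0.0086% and 1.28% in the other libraries. How the CD45 sort let these cells through was not tested.

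**Figure D1:**
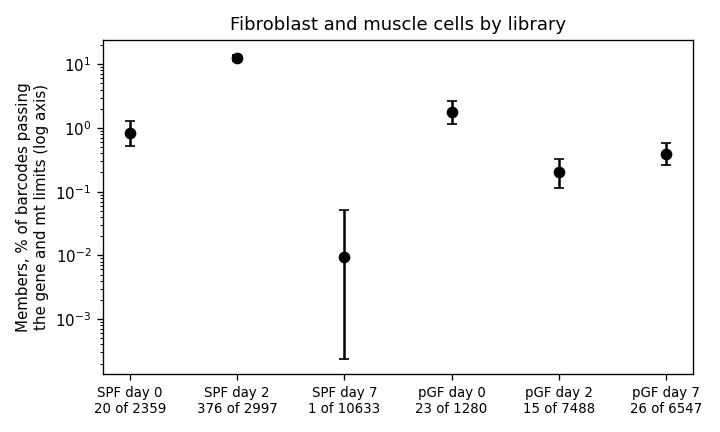
Share of barcodes that met the rule in each of the 6 libraries, as a percent of barcodes passing the gene and mitochondrial limits, on a log axis. Points are single libraries, bars are exact 95% binomial intervals, and the counts stand under each label. SPF day 2, at 12.5%, lies above the other 5 libraries, which run from 0.0094% to 1.80%.

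The collagen levels used by the rule were of one order in every library that held more than 1 member. Summed over members, Col3a1 (type III collagen of soft tissue) stood at 6381 CPM (UMIs scaled to a common library size of 1000000) at SPF day 2, against 5595 at SPF day 0 and 7456, 5692 and 6949 at pGF days 0, 2 and 7. Acta2 (smooth muscle actin) stood at 221 CPM at SPF day 2, 1216 at SPF day 0 and 1394 at pGF day 0, and at 0 and 22.8 CPM at pGF days 2 and 7. These values chose the cells and are description only. Between 24 and 125 barcode sequences of this library recurred in another library, and 0 to 7 of them belonged to members, none of which met the rule in both.

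Within SPF day 2, few barcodes lay near the limit of 5 UMIs. The collagen sum was 10 or more in 357 cells and 5 to 9 in 17, of which 14 had a muscle sum under 5 (median depth 1394.5 UMIs). With a muscle sum under 5, 7 barcodes with 3 or 4 (median 1039 UMIs) and 9 with 1 or 2 were left outside. The 7 held Dcn, a collagen-binding proteoglycan, at 16633 CPM and the 14 just inside at 7582 CPM. A further 62 barcodes met a sum but carried Ptprc (22), Epcam (46) or both (6), and 20 met it above the mitochondrial limit. Collagen-led cells had a median of 5318 UMIs (827 to 18289) and 2233 genes. Their collagen sum ran from 5 over a median of 52 to 638 UMIs. The muscle sum was 0 in 261 of the 365 (71.5%), 1 to 4 in 78 (21.4%) and 5 or more in 26 (7.12%). Of the 10 muscle-led cells, 8 also had 5 or more collagen UMIs, so the larger sum, not exclusive detection, separated the groups.

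**Figure D2:**
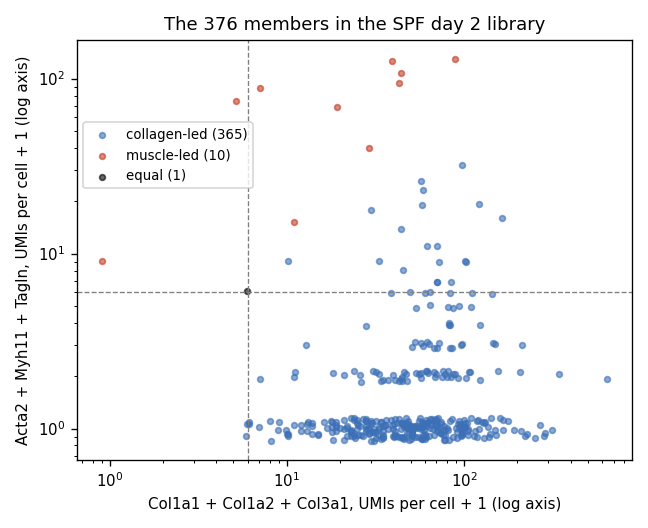
Collagen sum (Col1a1, Col1a2 and Col3a1) against muscle sum (Acta2, Myh11 and Tagln) in UMIs per cell plus 1, both on log axes, one point per member with a small random offset. Dashed lines mark 5 UMIs. The 365 collagen-led cells spread to the right and mostly lie at the bottom, and the 10 muscle-led cells lie in the upper left and centre, 8 of them to the right of the vertical line.

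The collagen-led cells carried fibroblast genes that the rule did not read, although these are genes of the same cells and so no independent check. Dcn stood at 10228 CPM (95% interval 10092 to 10366) and had a UMI in 97.8% of cells. Per cell it had lowest 0, median 92.0 and highest 357 UMIs per 10000. Lum, another collagen-binding proteoglycan, stood at 1091 CPM, and Pdgfra, the receptor for platelet-derived growth factor that marks gut fibroblasts, at 448 CPM in 78.6% of cells. Background from free RNA was read in 1082 immune barcodes of the same library (Ptprc detected, Epcam absent, median 3448 UMIs). It was also read in 801 epithelial barcodes (Epcam detected, Ptprc absent, median 17689 UMIs). Both sets were limited to barcodes with collagen and muscle sums under 5. Barcodes with more of that RNA were thus left out, so low levels of matrix genes there were partly set by the choice. In the immune and epithelial barcodes kept, Dcn stood at 4.84 and 0.634 CPM. After each cell was thinned to 1000 UMIs, which left out 4 collagen-led, 60 immune and 33 epithelial barcodes, Dcn was seen in 94.5%, 0.391% and 0.130% of them. With 10 muscle-led cells of 376, the smooth muscle of the label rested on few cells.

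Leukocyte, epithelial, endothelial and glial markers were low in the collagen-led cells, whereas antibody and haemoglobin RNA was present, much of it in single cells. The 9 pan-leukocyte markers summed to 36.7 CPM against 5823 in immune barcodes, and the 13 epithelial markers to 170 CPM against 23227 in epithelial barcodes, with Ptprc and Epcam at 0 by the rule. The 10 endothelial markers summed to 22.9 CPM and the 7 enteric glial markers to 14.8 CPM, and Cdh5, Cldn5, Sox10, Gfap and the mesothelial gene Msln had 0 UMIs, which allows up to 1.43 CPM. Plasma-cell markers summed to 2553 CPM, against 91224 in immune and 32284 in epithelial barcodes. Igha, the IgA heavy chain, had a UMI in 59.8% of the 376 cells, with 1689 of its 3082 UMIs in 1 cell and 899 in another. The 5 erythroid markers summed to 329 CPM, against 16.5 in immune and 3.80 in epithelial barcodes, and 3 of them reached 20 CPM and exceeded both. Of 523 UMIs of the haemoglobin gene Hbb-bs, 503 came from 1 cell. Their part in the results was not tested.

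Matrix production was the broadest common trait of the collagen-led cells. Of 27 other collagens and collagen-processing genes, 25 reached 20 CPM, and 25 of these exceeded both immune and epithelial barcodes at least 2-fold, as did 26 of 26 genes for proteoglycans and elastic fibre and 11 of 11 for basement membrane, of 15. Among all 6438 genes at that level, 18.2% did (1169). The collagens of the rule had defined the cells and had also limited the immune and epithelial barcodes, so these counts are description. Col6a2, a chain of the beaded filaments around cells, stood at 974 CPM in 95.1% of cells, and Col5a2, which sets fibril width, at 831 CPM in 92.3%. Serpinh1, the collagen chaperone of the endoplasmic reticulum, stood at 1449.6 CPM in 97.5%. These were near-ubiquitous genes.

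Other matrix genes differed in how evenly they were spread over the cells. Sparc, a matrix glycoprotein of collagen assembly, had lowest 0, median 38.3 and highest 138 UMIs per 10000. Eln, the elastin core of elastic fibres, had lowest 0, median 5.88 and highest 78.1 UMIs per 10000, and 5.86% of its UMIs lay in 1 cell. Mgp, an inhibitor of matrix calcification, had lowest 0, median 51.3 and highest 388 UMIs per 10000. Sparc was thus present in nearly all cells, whereas Eln and Mgp were absent from some and abundant in others. Tnc, a matrix glycoprotein of healing tissue, was detected in 18.4% of cells at 202 CPM. The basement membrane chain Col4a1 stood at 1356 CPM in 92.1% and the laminin chain Lamc1 at 562 CPM in 83.8%.

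Signals of the crypt niche came largely from the BMP side and from secreted antagonists. Of 31 genes in that list, 21 reached 20 CPM and 20 of those exceeded both immune and epithelial barcodes at least 2-fold, beside 18.2% of all genes. Bmp4, a differentiation signal to the epithelium, stood at 723 CPM (95% interval 687 to 760.2) and had lowest 0, median 6.03 and highest 101 UMIs per 10000. Grem1, which binds BMPs and blocks them, stood at 848 CPM in 52.3% of cells and had lowest 0, median 1.82 and highest 75.1 UMIs per 10000. Sfrp1, a secreted Wnt antagonist, stood at 821 CPM in 75.9%. Bmp5 and Bmp6 were detected in 43.8% and 48.8% of cells. The Wnt ligands were lower. Wnt5a stood at 139 CPM, Wnt4 at 116 CPM and Wnt2b at 34.8 CPM. Rspo3, an R-spondin that amplifies Wnt signals at stem cells, stood at 55.8 CPM in 17.8% of cells, and Rspo1 and Rspo2 had 14 and 1 UMIs.

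Growth-factor binding proteins were abundant and epidermal growth factor family ligands were found in part of the cells. Igfbp4 and Igfbp5, which bind insulin-like growth factors, stood at 3062 and 2585 CPM, and Igf1 itself at 276 CPM in 49.0% of cells. Ereg (epiregulin), a ligand of the epidermal growth factor receptor, stood at 651 CPM (95% interval 617 to 686) in 53.4% of cells against 14.3 CPM in epithelial barcodes and 0 in immune ones. Areg (amphiregulin), from the same family, stood at 105 CPM, below the 1389.8 CPM of epithelial barcodes. Hgf, a growth factor that acts on epithelium, was detected in 40.3%. Ccn1 and Ccn2, matricellular proteins, stood at 961 and 463 CPM.

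Among chemokines and cytokines, Cxcl12 was made by most collagen-led cells and the others described here by a minority. Cxcl12, which retains leukocytes and progenitors in tissue, stood at 1129 CPM (95% interval 1084 to 1175) in 88.5% of cells, against 3.87 CPM in immune and 1.27 in epithelial barcodes. Il6, a cytokine of acute inflammation, stood at 239.9 CPM (95% interval 219 to 262) in 26.0% of cells, against 14.9 and 1.06 CPM. Cxcl1, a neutrophil attractant, stood at 422 CPM (95% interval 394 to 450.3) in 38.9% of cells, against 165 and 56.2 CPM. Ccl11, an eosinophil attractant, and Il33, an alarmin released from damaged cells, were detected in 32.3% and 15.6% of cells, with 0.581 and 0 CPM in immune barcodes. Cxcl13, which attracts B cells, was found in 19.2%.

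Summed over all collagen-led cells, monocyte attractants were not above the level of immune barcodes. Ccl2 stood at 212 CPM against 231 in immune barcodes, and 40.5% of its collagen-led UMIs came from 1 cell. Ccl7 stood at 229 against 319.9 CPM, with 21.6% from 1 cell. Its level was uneven, and in the 47 cells of cluster 5, described below, it stood at 1171 CPM. There it was detected in 44.7% of cells, with 30.3% of UMIs from 1 cell. Il1b and Tnf, which leukocytes make, had 15 and 1 UMIs in the collagen-led cells, and Csf3 and Ccl20 had 0. Of the 33 genes in the list, 18 reached 20 CPM and 9 of those exceeded both other groups at least 2-fold, beside 18.2% of all genes. After thinning to 1000 UMIs, Cxcl12 was seen in 57.6% of collagen-led, 0.489% of immune and 0.391% of epithelial barcodes, Il6 in 10.8%, 0.881% and 0.130%, and Ccl2 in 7.76%, 7.14% and 0.260%.

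**Figure D3:**
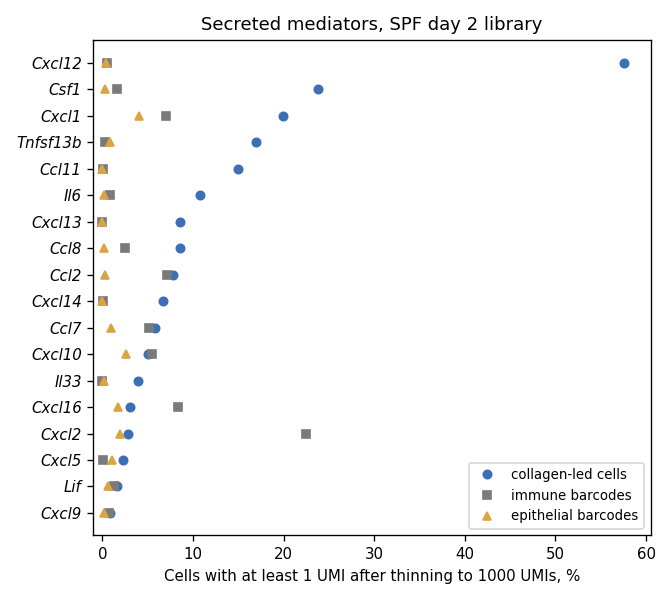
Percent of barcodes with at least 1 UMI after thinning to 1000 UMIs, for the 18 genes of the cytokine and chemokine list at 20 CPM or more in collagen-led cells. Circles are collagen-led cells, squares immune and triangles epithelial barcodes of the same library. Cxcl12 stands furthest right at 57.6% of collagen-led cells, and for Ccl2 the circle (7.76%) and the square (7.14%) nearly meet.

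Receptors for inflammatory signals and the complement genes accompanied these mediators. Vcam1 and Icam1, to which leukocyte integrins bind, stood at 340.5 CPM in 56.2% and 173 CPM in 39.2% of cells. Cd55, a membrane protein that restrains complement, stood at 834 CPM in 80.8%, against 27.3 and 85.5 CPM. Il1r1, Il6st and Osmr, receptor chains for interleukin-1, the interleukin-6 family and oncostatin M, were detected in 33.2%, 74.8% and 28.2%. Of 29 receptor and adhesion genes, 21 reached 20 CPM and 10 exceeded both other groups 2-fold, beside 18.2% of all genes. C1s1, a protease of the classical complement pathway, stood at 873 CPM in 94.2% of cells, and Serping1, its inhibitor, at 1481 CPM in 95.1%. C3, the central complement component, was detected in 34.0% of cells at 489 CPM. Ptgs2, the inducible prostaglandin synthase, stood at 516 CPM in 37.8%, against 191 in immune barcodes. Of 20 complement and prostaglandin genes, 14 reached 20 CPM and 10 exceeded both others, read against the same 18.2%.

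Matrix proteases were found along with their inhibitors. Mmp2 and Mmp14, a gelatinase and its membrane-bound activator, stood at 505 and 637 CPM in 80.5% and 88.2% of cells, and Timp2 and Timp3, tissue inhibitors of these enzymes, at 1009 and 1295 CPM in 95.3% and 81.4%. Mmp3 (stromelysin) was detected in 10.7% only, and Timp1 in 35.6%. Adamdec1, a secreted disintegrin-like protease of gut lamina propria fibroblasts, stood at 899 CPM in 60.5% of cells. Of 28 genes in the list, 23 reached 20 CPM and 21 of them exceeded both other groups 2-fold, beside 18.2% of all genes. Among stromal transcription factors, 17 of 20 at that level did, of 27, beside the same 18.2%. Tcf21, a regulator of mesenchymal fate, stood at 929 CPM in 79.2% of cells, and Foxf1, a hedgehog-responsive factor of gut mesenchyme, at 127 CPM in 44.9%.

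Immediate-early genes, which cells switch on quickly when stimulated and also during tissue digestion, were high. Fos stood at 2926 CPM in collagen-led cells, 852 in immune and 1417 in epithelial barcodes, and Egr1 at 2668, 329 and 635 CPM. The list of 29 immediate-early and heat-shock genes summed to 28582 CPM against 14860 and 15571 CPM. Of the 28 genes at 20 CPM, 10 exceeded both other groups 2-fold, beside 18.2% of all genes. What digestion added to the level of these genes, or of inflammatory genes such as Il6 and Cxcl1, was not tested. Interferon-response genes exceeded both others in 3 of 14 (21.4%), near the 18.2% of all genes. One of the 3 was Ifi27l2a (2280.3 against 389 and 22.5 CPM). Of the antigen-presentation and hypoxia genes at 20 CPM, 0 of 10 and 0 of 14 did. Only 1 of 15 cell-cycle genes reached 20 CPM, and the proliferation marker Mki67 had 9 UMIs.

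The collagen-led cells were not uniform, as counts of genes found in the same cell showed. Pi16, a marker of adventitial fibroblasts around vessels, had a UMI in 3 of 221 cells with Adamdec1 (1.36%, 95% interval 0.281 to 3.92%) and in 45 of 144 without it (31.2%, 23.8 to 39.5%). C3 was found in 14.0% of cells with Adamdec1 and 64.6% of those without. The median depths were alike, 5355 and 5251 UMIs. After thinning, the shares were 0.704% and 10.5% for Pi16 and 1.41% and 31.5% for C3. Pi16 was thus rare in cells with Adamdec1.

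In all, 14 pairs were counted. The second gene was more frequent beside the first in 9 pairs, with intervals apart, and less frequent in 3, and in 2 the intervals overlapped. Thinning kept the direction in 8 of the 9 and in all 3. Bmp4 was detected in 173 of 191 cells with Grem1 (90.6%, 85.5 to 94.3%) and in 59.2% of cells without it, and after thinning in 60.6% and 40.6%. Cxcl1 was found in 66 of 95 cells with Il6 (69.5%, 59.2 to 78.5%) and in 28.1% of those without, and after thinning in 59.0% and 15.2%. C3 was found in 49 of 57 cells with Il33 (86.0%) and in 24.4% of those without, but cells with Il33 were deeper (median 7487 against 5159.5 UMIs). Thinning left 14 cells with Il33, of which 50.0% had C3, against 18.4% of the others. Adamdec1 was found in 14.9% of cells with Cd81, a tetraspanin of crypt-base fibroblasts, and in 76.4% of cells without. Cells with Cd81 were deeper (6434 against 5166 UMIs), and after thinning the shares were 2.94% and 43.1%. Grem1 was found in 59.3% of cells with Adamdec1 and 41.7% of those without, but in 35.2% and 37.4% after thinning. Intervals overlapped for Cd34 in cells with and without Pdgfra (66.6% and 60.3%) and for Bmp5 in cells with and without Wnt5a (49.1% and 41.4%). These are counts within 1 library, and the pairs were picked after their values were seen.

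Clustering the 376 cells on 1000 variable genes gave 7 clusters, which are described here by leading genes and not tested, since the same genes formed them. Cluster 1, with 133 cells, was lamina propria fibroblast-like by its leading genes. The 10 lamina propria fibroblast markers summed to 5574 CPM in it and 5050 in cluster 5. They summed to 4028 to 4481 CPM in clusters 2, 3, 4 and 6 and to 1123 in cluster 7. The name thus rests on the leading genes and not on the whole list. Adamdec1 stood in cluster 1 at 1633 CPM in 82.0% of cells. Also leading there were Edil3, an integrin-binding matrix protein, and Fgfr2, a fibroblast growth factor receptor. Wnt4 was detected in 51.1% of the cells of cluster 1. Cxcl9 and Cxcl10, which attract activated T cells, ranked first by fold, but 94.7% and 93.7% of their UMIs in the cluster came from 1 cell. Cluster 5, with 47 cells, was adventitial fibroblast-like, led by Ptx3, a soluble pattern-recognition protein, and by Ccl7, C3 and Pi16. C3 stood at 1888 CPM there in 93.6% of cells, against 57.7 CPM in cluster 1, and Pi16 at 389 against 7.80 CPM. The trait was shared with cluster 4. The 13 CD81-positive or adventitial fibroblast markers summed to 8884 CPM in cluster 5 and 7476 in cluster 4, against 821 to 4213 elsewhere.

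Cluster 6, with 16 cells, was like the PDGFRA-high fibroblasts that lie under the epithelium. Pdgfra stood at 2090.3 CPM there, against 304 to 589 CPM in clusters 1 to 5. Sox6, a transcription factor, was detected in 75.0% of its cells and in at most 2.13% of cells of any other cluster. The BMP ligands stood high, with Bmp2 at 879 CPM, Bmp5 at 994 and Bmp7 at 395, whereas the antagonist Grem1 had 0 UMIs. Ednrb, an endothelin receptor, and F3, the coagulation tissue factor, were also among its leading genes. Acta2 and Tagln were present as well, at 574 and 790.2 CPM, above the 3.41 to 120 and 6.83 to 135 CPM of clusters 1 to 5. All 16 cells were collagen-led.

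Clusters 2, 3 and 4 stayed unnamed because at most 1 of their 10 leading genes was a marker of any 1 list. Cluster 2 (66 cells) was led by Serpina3g, Il6, Irf1 and Atf3, genes of acute cytokine and stress responses, with Fos at 5660.3 CPM against 1075 in cluster 1. Its summed immediate-early and heat-shock list was 49740 CPM, the highest of the 7 clusters. The sum was also high in clusters 3, 5, 6 and 7, at 37361 to 41309 CPM, against 12410 in cluster 1 and 11786 in cluster 4. Cluster 3 (54 cells) was led by the epidermal growth factor family ligands Btc and Ereg and by Timp1. Ereg stood at 1722 CPM in 94.4% of its cells, and Il11, a cytokine of activated fibroblasts, at 57.4 CPM in only 7.41%. Its first genes by fold, the gut hormone genes Cck and Gcg, rested on 3 and 8 cells. Plasma-cell markers summed to 6657 CPM in cluster 3 and 5138 in cluster 4, against 628 to 1080 elsewhere, and the cell with 1689 Igha UMIs was in cluster 3.

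Cluster 4 (48 cells) shared Gas1, Wt1, Cilp, Cd34 and Cd81 with cluster 5. Gas1, a hedgehog coreceptor, stood at 997 and 615 CPM in the pair and at 0 to 57.6 CPM in the rest. Cd34, a surface marker of fibroblast progenitors and vessels, stood at 641 and 539 CPM against 0 to 296 elsewhere. The inflammatory genes parted them. Il6 stood at 35.6 CPM in cluster 4 and 789 in cluster 5, Cxcl1 at 84.2 and 1093, and Has1, a hyaluronan synthase, at 38.9 and 1062. The immediate-early and heat-shock sum differed in the same direction, 11786 CPM in cluster 4 and 37361 in cluster 5, and its part was not tested. Thbs4, the first gene of cluster 4 by fold, came from 5 cells, with 77.2% of UMIs in 1. Cluster 7 (12 cells) was smooth-muscle-like and held 9 of the 10 muscle-led cells, and its first gene by fold, the lipid-binding protein gene Fabp4, came from 3 cells with 55.5% of UMIs in 1.

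**Figure D4:**
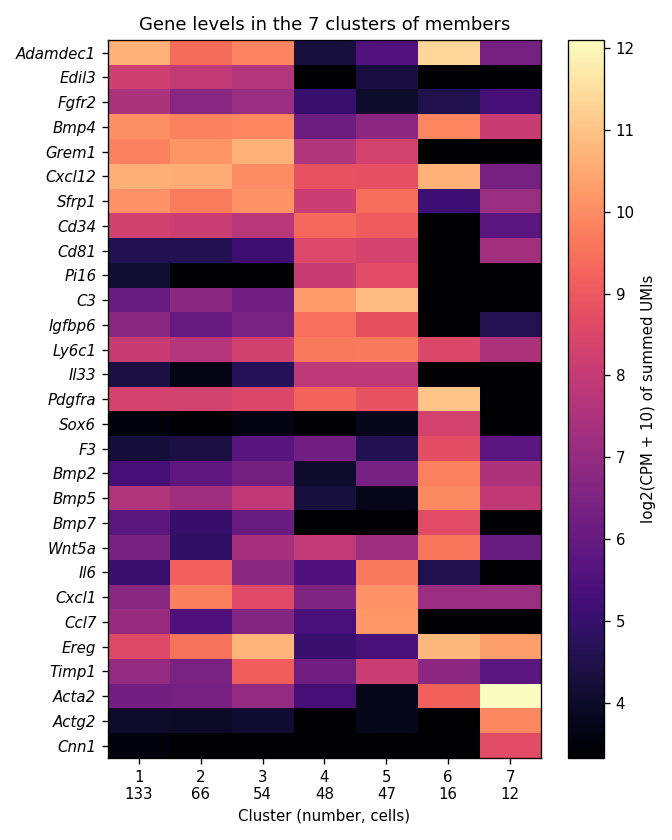
Levels of 29 genes in the 7 clusters of members, as log2 of CPM plus 10 from UMIs summed over each cluster's cells, with cell numbers under the columns. Adamdec1, Bmp4 and Grem1 are bright in clusters 1 to 3, C3 and Pi16 in 4 and 5, the BMP ligands in 6 and the contractile genes in 7.

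The muscle-led cells carried a contractile programme beyond the 3 genes that chose them, and differed among themselves. Their depth ran from 501 to 12676 UMIs (median 5177.5). In order of depth, cells 1 to 10 held 18, 6, 10, 16, 0, 2, 9, 2, 1 and 0 UMIs of Actg2, the actin of visceral smooth muscle. Myl9, the regulatory myosin light chain, had 13, 15, 16, 22, 5, 4, 10, 11, 0 and 1 UMIs, and Mylk, the kinase that switches myosin on, had 12, 13, 24, 14, 8, 8, 9, 8, 1 and 2. Mylk was thus found in all 10 cells and Myl9 in 9. Cnn1, an actin-binding brake on contraction, had 6, 7, 4, 4, 0, 3, 3, 1, 0 and 0.

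Cells 1, 2, 3, 4, 6 and 7 formed one kind, with Actg2, Cnn1, Hhip (which sequesters hedgehog ligands) and Postn (periostin, a matrix protein) in every one. Hhip had 1, 6, 5, 16, 2 and 23 UMIs in them and 0 in the other 4 cells. Postn had 32, 24, 38, 26, 21 and 13 in them, and their collagen sums ran from 18 to 88 UMIs. Des, an intermediate filament gene among the smooth muscle markers, had only 0, 1, 0, 1, 0 and 0 UMIs in them. Hhip is on the list of myofibroblast markers, as is Acta2. Whether these were smooth muscle cells or myofibroblasts was not tested. Cell 5 stood apart with 41 UMIs of Rgs5, a signalling inhibitor typical of pericytes, 6 of Notch3 and 7 of Des. It had no Actg2, Cnn1 or Hhip. Cell 8 had 53 Tagln UMIs, 4 of Des and 4 of the chemokine Ccl19, and cell 9 had 7 of Rgs5 and 0 of Myl9. Cell 10 had 501 UMIs in all and only 8 in its muscle sum. Pdgfra had 0 UMIs in all 10 cells, which allows a detection share of up to 30%, and Pln and Chrm2, genes of calcium handling and of nerve-driven contraction, also had 0.

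**Figure D5:**
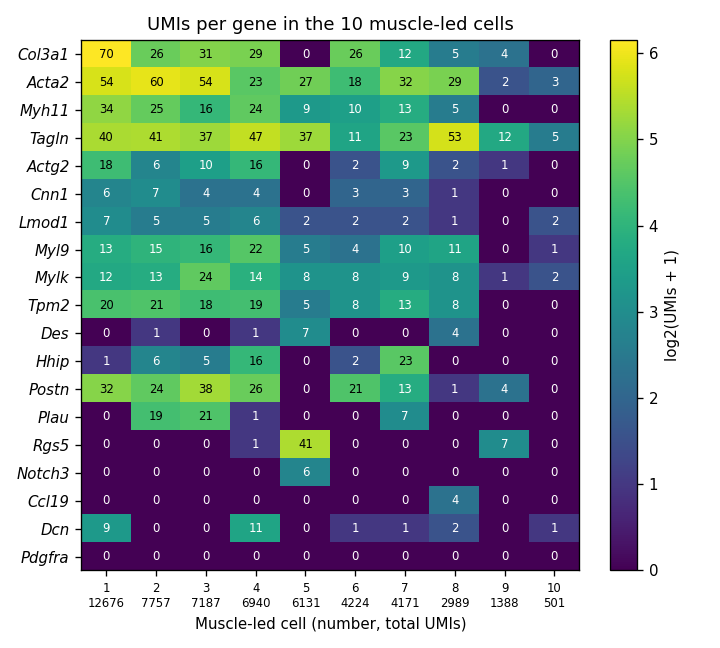
UMIs of 19 genes in each of the 10 muscle-led cells, ordered by depth, with the total UMIs under each cell. The numbers are UMIs and the colour is log2 of UMIs plus 1. Cells 1 to 4, 6 and 7 share Actg2, Cnn1, Hhip and Postn, and cell 5 carries 41 UMIs of Rgs5.

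Summed over cells, contractile genes were among those furthest higher in the muscle-led pool. By the ratio of CPM plus 10, the order was Actg2, Cnn1, Myl9 and Lmod1, then Plau, Mylk, Hhip, Rgs5 and Tpm2. Actg2 stood at 1186 CPM (95% interval 913 to 1514) against 6.20 CPM in collagen-led cells, a ratio of 191-fold (95% interval 104 to 379). Myl9 stood at 1797 CPM (95% interval 1458 to 2193) against 28.1, 63.9-fold (95% interval 45.8 to 89.9), and Mylk at 1835 against 42.4, 43.2-fold (95% interval 32.1 to 58.2). Lmod1, which nucleates actin filaments, stood at 593 against 3.81 CPM, and Tpm2, a tropomyosin, at 2075 against 99.7 CPM. Cnn1 had 28 UMIs (519 CPM) against 1 in the collagen-led cells, a ratio whose 95% interval was 179.9 to 44493. In immune and epithelial barcodes Actg2, Cnn1, Myl9 and Lmod1 stood at 0 to 0.352 CPM.

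Genes outside the contractile list were also among the 12 furthest. Hhip stood at 982 against 25.8 CPM, 38.1-fold (95% interval 25.6 to 56.8). Plau, the urokinase plasminogen activator, stood at 889 against 15.3 CPM in 4 of 10 cells. Mustn1, a small nuclear protein of muscle and skeleton, stood at 1612 against 140.2, and Tgfbi, a matrix adhesion protein, at 815 against 53.9 CPM. Rgs5 and Rrad, a small GTPase, were named by the same rule, but 1 cell supplied 83.7% and 92.3% of their UMIs. Postn stood at 2946 against 1533 CPM.

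Counts over genes depended on depth. A gene counted as measured with 20 UMIs and 20 CPM in the higher pool, and as higher past 2-fold on the scale of CPM plus 10. By that limit 82 of 4146 genes (1.98%) were higher in muscle-led and 1693 (40.8%) in collagen-led cells. One UMI was worth 18.5 CPM in the muscle-led pool of 53964 UMIs and 0.477 CPM in the collagen-led pool of 2097072, so 8984 genes reached 20 UMIs in the latter and 399 in the former. With 1 level limit for both pools, 371 CPM, 492 genes remained, of which 82 (16.7%) were higher in muscle-led and 86 (17.5%) in collagen-led cells, with a median log2 difference of -0.0025 over all of them, against -0.74 by the first limit. At that limit 17 of 18 contractile genes, of 29 in the list, were higher in muscle-led cells, with a median log2 difference of 2.89. Of the 2 excitation genes at that limit, both were, and of 4 crypt-niche and 8 growth-factor genes 1 and 2 were. None of 9 collagen-processing, 18 matrix or 5 basement-membrane genes was. A gene could pass this limit through the pool where it was high, and the 29 contractile genes had a median of 72.0 CPM in collagen-led cells. Muscle and collagen genes of the same cells had also split the pools, so these counts are description.

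Some contractile genes were shared by both kinds of cell. Cald1, which links actin and myosin, stood at 2390.5 CPM in muscle-led and 785 in collagen-led cells, where 90.1% had a UMI, and Tpm4 at 537 and 365 CPM, 1.47-fold (95% interval 0.980 to 2.13). Col6a1 stood at 574 and 598 CPM and Col6a3 at 556 and 413 CPM. The intervals of the last 3 ratios held 1. Myocd, the coactivator myocardin, had 5 UMIs in 4 of 10 muscle-led cells and 4 in the 365 collagen-led ones.

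The muscle-led cells were more often scored as doublets than the collagen-led. Of the 186 barcodes of the library with the highest doublet scores, 9 were among the 10 muscle-led cells and 10 among the 365 collagen-led (2.74%). The muscle-led scores lay between 0.0217 and 0.0993, with the removal limit at 0.068 and the highest score of the library at 0.516. Without them 1 muscle-led cell of 1388 UMIs remained, too few to repeat the contrast, since 20 UMIs in it are worth 14409 CPM and 1 gene outside the rule had that many. By the same limits 0 genes were higher in muscle-led and 5664 in collagen-led. That cell held 1 UMI of Actg2, 1 of Mylk and 7 of Rgs5, which gave log2 differences of 5.62, 3.91 and 7.18, and 0 UMIs of the other 9 genes named as higher in muscle-led cells. The part of doublets in the values of these cells was not tested.

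Fibroblast genes were present in the muscle-led pool at lower summed levels. The 10 fibroblast markers summed to 7746 CPM there and 27233 CPM in collagen-led cells. They include the collagens of the rule, which chose the cells and split the groups. Of these marker sums, the collagens of the rule gave 5133 and 11320 CPM, and cell 1 alone held 70 Col3a1 UMIs. The 26 genes for proteoglycans and elastic fibre, none of them in the rule, summed to 11081 and 33870 CPM. Some abundant genes were nearly absent. A collagen-led cell held a median of 50 Dcn, 24 Mgp and 9 Clec3b UMIs, and the 10 muscle-led cells together held 25, 3 and 0. Eln, Grem1 and Fbln2 were also at 0 in them. When only cells with 5 UMIs of one sum and fewer of the other were kept, 2 muscle-led cells stayed, cells 5 and 10, and 12 genes were higher in them. Of the 12 genes named as higher in muscle-led cells, 7 were past 2-fold in that pair, among them Mylk (log2 5.63), Lmod1 (5.61) and Myl9 (5.03), and the other 5 had 0 UMIs.

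The genes named as furthest lower in muscle-led cells included matrix and complement proteins, which are secreted, and also the receptor Pdgfra and the membrane-anchored Ly6c1. Mgp stood at 6990.2 against 55.6 CPM (3 UMIs), 126-fold (95% interval 43.0 to 609.8). Clec3b (tetranectin, a plasminogen-binding lectin) had 2108 CPM in collagen-led cells and 0 UMIs in muscle-led, at least 37.9-fold higher when 3 UMIs over the pool are taken as the floor. By the same floor Eln was at least 17.3-fold, Grem1 15.3-fold, Fbln2 (an elastic-fibre glycoprotein) 10.8-fold and C4b (a complement component) 10.3-fold higher. The other genes named by the rule, Htra3 and Tnfaip6 (a matrix protease and a hyaluronan-binding protein), C3, Col14a1, Pdgfra and Ly6c1, were at least 7.48 to 9.22-fold higher, and all 6 had 0 UMIs in the muscle-led pool. Cxcl12 stood at 1129 and 55.6 CPM. Fos stood at 2926 and 5115 CPM, and of 27 immediate-early and heat-shock genes measured 3 were higher in each group. Over all 4146 genes measured by that limit, 1.98% were higher in muscle-led and 40.8% in collagen-led cells.

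Promoter sequence was set beside the contractile genes because many are targets of serum response factor, which binds the CArG box, an A and T core flanked by C and G pairs. The pattern searched was CC, then 6 letters that are each A or T, then GG, which reads alike on both strands. In the 250 bases before the start given by RefSeq (GRCm38.p6), it was found in 482 of 32851 windows over all genes (1.47%). Of 8 contractile genes searched, 5 had an entry (Acta2, Cnn1, Des, Lmod1 and Myl9) and 1 of 5 windows held it, that of Myl9. Tagln, Myh11 and Actg2 had no entry. Of 8 fibroblast genes, Col1a2, Col3a1, Col6a1, Col6a2 and Col6a3 had entries, and 0 of 6 windows held it. With 1 of the 6 letters allowed to be C or G, which was chosen after seeing the data, 2 of 5 contractile and 2 of 6 fibroblast windows held a match, against 8.59% of all windows. Col1a1, Dcn and Lum had no entry. Below are Myl9, chr2:156775214-156775463, plus strand, and Acta2, chr19:34255374-34255623, minus strand, the contractile gene of the rule with an entry. Capitals mark matches. Myl9 holds the strict pattern from 161 to 152 bases before the start and a looser match from 99 to 90. Acta2 holds looser matches only, from 84 to 75 and from 34 to 25 bases before the start.
Myl9: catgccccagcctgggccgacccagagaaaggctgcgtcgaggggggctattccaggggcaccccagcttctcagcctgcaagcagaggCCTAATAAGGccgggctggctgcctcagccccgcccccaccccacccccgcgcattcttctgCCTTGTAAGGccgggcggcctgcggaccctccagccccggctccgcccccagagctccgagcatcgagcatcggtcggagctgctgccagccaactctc
Acta2: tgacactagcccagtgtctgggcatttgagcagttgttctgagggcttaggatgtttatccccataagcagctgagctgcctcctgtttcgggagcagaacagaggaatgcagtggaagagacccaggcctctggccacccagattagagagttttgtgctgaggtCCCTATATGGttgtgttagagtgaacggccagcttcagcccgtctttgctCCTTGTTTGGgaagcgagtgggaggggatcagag
A match is a string of letters and not a measured binding site, and the lack of one says nothing about the factor.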

How the data were processed

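Single-cell 5′ RNA was measured in 6 libraries of CD45-sorted mouse colon cells, 1 per group. The deposited matrices hold UMI counts for 32285 genes, made with Cell Ranger 6.1.2 per the file headers, and the submitters' processing notes name mm10, R 4.1.3 and Seurat 4.1.1. The annotation release is not given in the sources used here. Totals ran from 23335071 to 52772901 UMIs a library (37169685 in SPF day 2). UMI counts were used as deposited, and doublets were removed only as an alternative (0.8% of barcodes per 1000). The members and gene lists were chosen with earlier results of these data known, and the pairs of genes counted together and the cells described one by one after their values were seen.

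UMIs were summed over cells and scaled to CPM over all genes. The contrast of muscle-led and collagen-led cells was log2 of the ratio of CPM + 10, with exact conditional binomial intervals of the ratio of sums, exact Poisson intervals for CPM and Clopper-Pearson intervals for shares, all at 95%. A count of 0 was bounded by 3 counts. The genes named were the 12 furthest in each direction with 50 CPM and 20 UMIs in the higher pool, a UMI in 10% of its cells and a level above immune and epithelial barcodes, besides members of the lists. Rule genes and antigen receptor, mitochondrial, ribosomal protein, haemoglobin and unnamed genes were left out of the ranking. Any other gene named, and the leading genes of clusters, are description. Clusters used 1000 variable genes, 15 principal components, 15 neighbours and Leiden resolution 0.8. The calculation of ratios and intervals was tested on simulated data. Promoters came from RefSeq (GRCm38.p6), matched by symbol. Tools were Python 3.11.15, numpy 2.4.6, scipy 1.17.1, pandas 2.3.3, scanpy 1.11.5, leidenalg 0.10.2 and edgeR 4.0.16 (for scaling factors only).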

Additional observations from a re-analysis of the deposited data

How the results depend on the processing

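The share of members among passing barcodes was 14.9% with at most 5% mitochondrial UMIs and 10.8% with at most 20%, against 12.5%. The contrast of the 10 muscle-led with the collagen-led cells (82 genes higher in muscle-led and 1693 in collagen-led, 1775 in all) moved with 4 choices. With the highest doublet scores removed, 1 muscle-led cell was left and the counts were 0, 5664 and 5664. With cells holding 5 UMIs of one sum only, 2 were left and the counts were 12, 4580 and 4592. With no filter beyond 1 UMI they were 1352, 2978 and 4330, and with 1 level limit for both pools, chosen after seeing the data, 82, 86 and 168. The first pair of settings leaves fewer cells, no filter admits more genes and the level limit fewer, all by construction. The count of contractile windows with a promoter motif went from 1 to 2 of 5 when 1 core letter could be C or G, also chosen after seeing the data.

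Negative values for genes named as higher in muscle-led cells came from genes with 0 UMIs in the few cells left (9 of 9 and 5 of 5), where 1 UMI is worth 720 and 151 CPM, so depth and pseudocount set their sign and they measure no reversal. Without the high doublet scores the list medians were -3.04 for contractile and -3.03 for excitation genes (log2), and Cnn1 was at -0.069, Myl9 -1.96, Lmod1 -0.32, Plau -1.33, Hhip -1.85, Tpm2 -3.45, Rrad -1.66, Tgfbi -2.65 and Mustn1 -3.89, whereas Actg2 (5.62), Mylk (3.91) and Rgs5 (7.18) were past 2-fold. With 1 sum only the contractile median was -2.28, and Actg2 was at -0.50, Cnn1 -0.073, Plau -1.13, Hhip -1.86 and Tgfbi -2.21, whereas Myl9 (5.03), Lmod1 (5.61), Mylk (5.63), Tpm2 (2.98), Mustn1 (3.99), Rgs5 (7.54) and Rrad (6.89) were past 2-fold. In these 2 settings 19 and 9 of the 29 contractile genes had 0 UMIs. TMM scaling gave -0.017 for the 3 excitation genes, and no filter gave 0.26 for hypoxia and glycolysis genes. For the last 2 the cause was not tested. Of 264 values of the 24 named genes over 11 settings, 238 kept their size and side, 12 moved and 14, those at 0 UMIs above, had the other sign. The 17 list medians gave 214 values over 13 settings. Of these 165 kept their size, 44 moved and 5, given above, reversed from a median past 2-fold. The sign was kept in 204 of the 214. The number of clusters was 7, and 5 or 9 at resolution 0.4 or 1.2. No paired analysis was possible because each group is 1 library and no test was made, and for the same reason no replicate could be left out. Comparison with members of other libraries was not run under any setting, as none had 50. The 10 muscle-led cells, whose pool allows up to 55.6 CPM for a gene with 0 UMIs, limit what can be said of genes lower in them.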

Other observations

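Genes for nerve guidance and trophic support were found in both kinds of cell. Ncam1, a neural cell adhesion molecule, stood at 250 CPM in collagen-led and 426 CPM in muscle-led cells, and Slit3, a secreted guidance cue, was detected in 58.4% of collagen-led cells. Gdnf, a growth factor that supports enteric neurons, had 2, 1 and 4 UMIs in muscle-led cells 1, 2 and 3 and 14 UMIs over the 365 collagen-led cells. Sema3a, a repellent cue for axons, had 1 to 3 UMIs in 7 of the 10 muscle-led cells. Ano1, a chloride channel of pacemaker cells, had 7 UMIs in 1 muscle-led cell and Kit had 0 in all 10.

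Nrg1, an epidermal growth factor family ligand, was unevenly spread. It had a UMI in 10.4% of collagen-led cells, in 50.0% of the 16 cells of the PDGFRA-high cluster, in 24.1% of cluster 3 and in 0 cells of clusters 2, 4 and 5. Wnt5a followed another order, at 765 CPM in the PDGFRA-high cluster, 243 CPM in cluster 4 and 19.2 CPM in cluster 2.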
